A study of Arabidopsis thaliana with 4 samples.

Results

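Cytochrome P450 genes were followed in detached inflorescences of Arabidopsis thaliana held for a day in the dark. A gene was taken as a member if a probe set of its own carried a current symbol made of CYP, 2 or 3 digits and a letter. The rule found 23 genes with 1 probe set each, of 13356 genes that a probe set of their own names. The table holds 22746 probe sets in all. The gene table used for names holds 236 genes with a symbol of this form, so most of the superfamily is not analysed here. RNA from the primary-bolt inflorescences of 5-week-old plants of the ecotype Ler-0 was hybridised to 4 Affymetrix arrays. Inflorescences were cut at the lowest unopened floret 11 h into a 16 h day, and 10 of them, each from another plant, made up the pool of a time point. At T0 (2 arrays) they were frozen at once; at T24 (2 arrays) they had spent 24 h at 21 °C in a black 2 L box on paper wetted with 50 mL of water. The titles call the arrays of a group biological replicates, and whether each had a pool of its own is not stated, so the p-values reflect only how far these arrays differ, which may be technical. The treatment label reads dark-held on all 4 arrays, and the time label separates the groups. Cutting, darkness, the closed wet box and 24 h of time go together and cannot be told apart.

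Cytochrome P450s are haem enzymes that insert an oxygen atom into small molecules, and most plant members sit in the endoplasmic reticulum and take electrons from a reductase that uses NADPH. The number in the name is the family and the letter the subfamily, and families are joined into clans by descent. Clan 71 holds many enzymes of plant specialised metabolism, while many that make or break down hormones, sterols, carotenoids, cutin and wax are in other clans. In flowers P450s are known for scent compounds, pollen wall monomers and organ growth.

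The 23 genes came from 2 clans. Clan 71 had 22 of them, with 19 of family CYP71, all of subfamily CYP71B, and 1 each of families CYP78, CYP79 and CYP84. Clan 51 had CYP51G2 alone. Clans 72, 85 and 86 had 0 members by the rule. The array also named CYP718, a clan 85 P450 whose symbol in the gene table lacks the letter. It is no member, and it gave 4.42 and 4.19 at T0, then 4.40 and 4.29 at T24. The symbols CYP71 and CYP59 belong to cyclophilins, which are proline isomerases, and were left out. Values here are log2 signals after RMA, the submitters' summary of each probe set. Pairs of values are given in the order of replicates 1 and 2. A change is the T24 mean less the T0 mean, and its SE is limma's moderated standard error. Signals of different probe sets are not amounts of RNA that can be set against each other.

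One of the 23 genes, CYP71B23, rose after 24 h, and 0 fell. Adjusted p-values come from limma over all 22746 probe sets, and a gene passed at an adjusted p under 0.05. Over all probe sets 13.2% passed, 6.39% higher and 6.84% lower. Of the P450 genes 4.35% passed. At an unadjusted p under 0.05 there were 3 P450 genes (13.0%), CYP71B23, CYP71B26 and CYP71B35, against 30.4% of all probe sets. The groups did not overlap and T24 was higher for 8 members (34.8%), against 27.4% of all probe sets. T24 was lower without overlap for 5 members (21.7%), against 30.0%. The median change of the 23 was 0.10, against -0.0048 over all probe sets. Within clan 71 it was 0.09, with 1 rise and 0 falls among 22, and CYP51G2 of clan 51 stood at 0.12 ± 0.24 (SE). Median centring of the arrays moved every change up by 0.16, so a median of this size is within what the scaling sets.

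**Figure D1:**
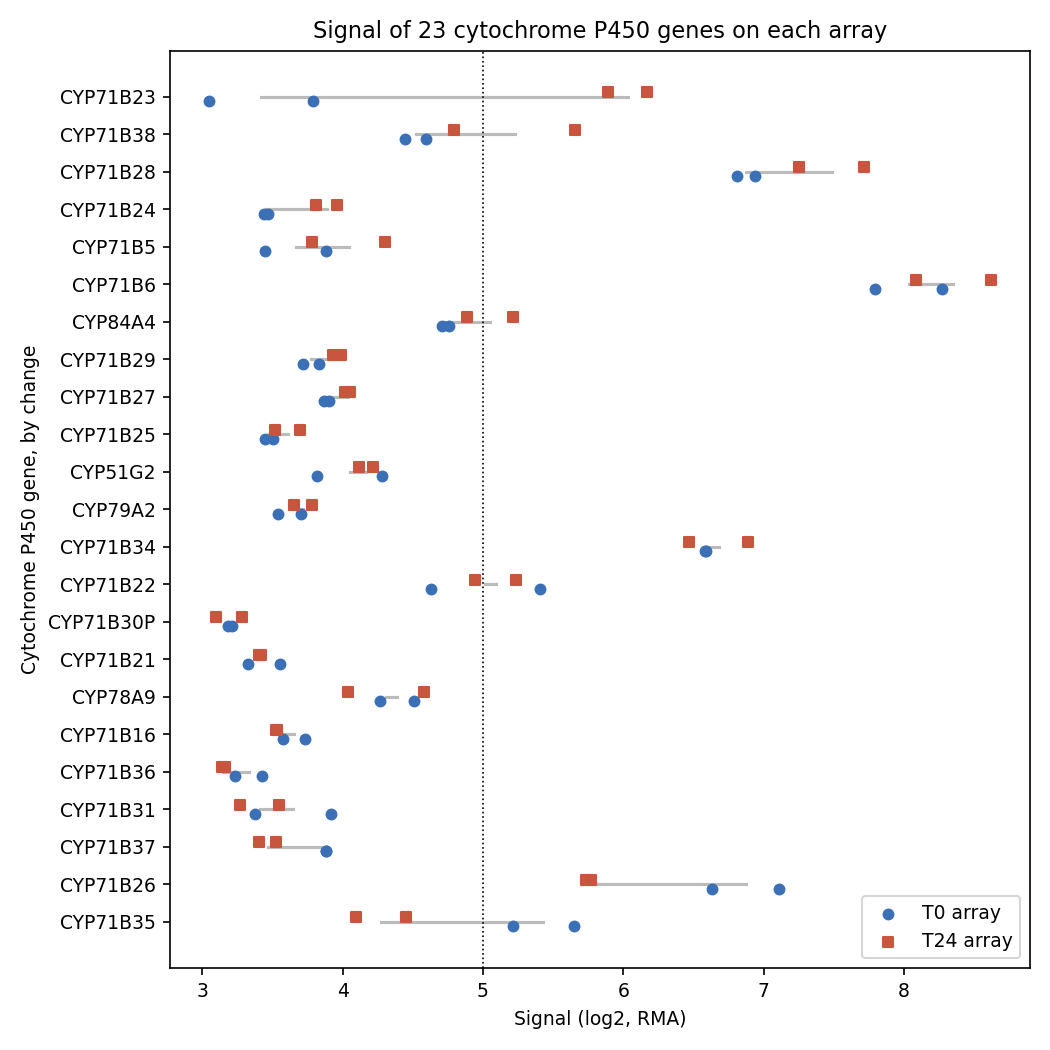
Log2 signal (x axis) of the 23 cytochrome P450 genes (y axis, ordered by change) on each of the 2 T0 arrays (circles) and 2 T24 arrays (squares), with a grey line between the group means and a dotted line at 5. CYP71B23 moved from between 3.05 and 3.79 to between 5.90 and 6.17, and most other genes stayed left of the line with groups close together.

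CYP71B23 (AT3G26210) had signals of 3.05 and 3.79 at T0 and of 6.17 and 5.90 at T24. Both T24 arrays lay above both T0 arrays, and the gap between the groups was wider than the 0.74 between the T0 replicates. The rise was 2.61 ± 0.32 (SE), or 6.12-fold, from 3.42 ± 0.52 to 6.03 ± 0.19 (SD, n = 2 each), with an adjusted p of 0.0234 in limma. Its 95% interval ran from 1.72 to 3.51 on the log2 scale. Of all probe sets, 2.50% had a larger rise. The T0 signals were in the range where RMA compresses differences toward 0, so the size is approximate. Its adjusted p in limma was 0.0585 without T0 replicate 1 and 0.0571 without T0 replicate 2. It was 0.124 without T24 replicate 1 and 0.111 without T24 replicate 2, and in each of these 4 fits 0 of all probe sets passed. In whole tissue, a change in the number of cells of a type and a change in RNA per cell cannot be told apart.

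CYP71B26 and CYP71B35 lay lower at T24 without passing the test. CYP71B26 (AT3G26290) had 6.64 and 7.11 at T0 and 5.74 and 5.77 at T24. All 4 signals were above 5, the T24 arrays agreed within 0.04, and the groups did not overlap. The difference was -1.12 ± 0.24 (SE), 2.17-fold lower, with a 95% interval from -1.78 to -0.46 and an adjusted p of 0.0591 in limma. With the replicate number as a block it passed, with an adjusted p of 0.0334 in limma. CYP71B35 (AT3G26310) had 5.22 and 5.65 at T0 and 4.45 and 4.10 at T24, again without overlap. Its difference was -1.16 ± 0.26 (SE), 2.23-fold lower, with an interval from -1.88 to -0.44 and an adjusted p of 0.0651 in limma. Both intervals exclude 0 before the adjustment over all probe sets, and falls larger than theirs were found for 11.7% and 11.1% of all probe sets.

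**Figure D2:**
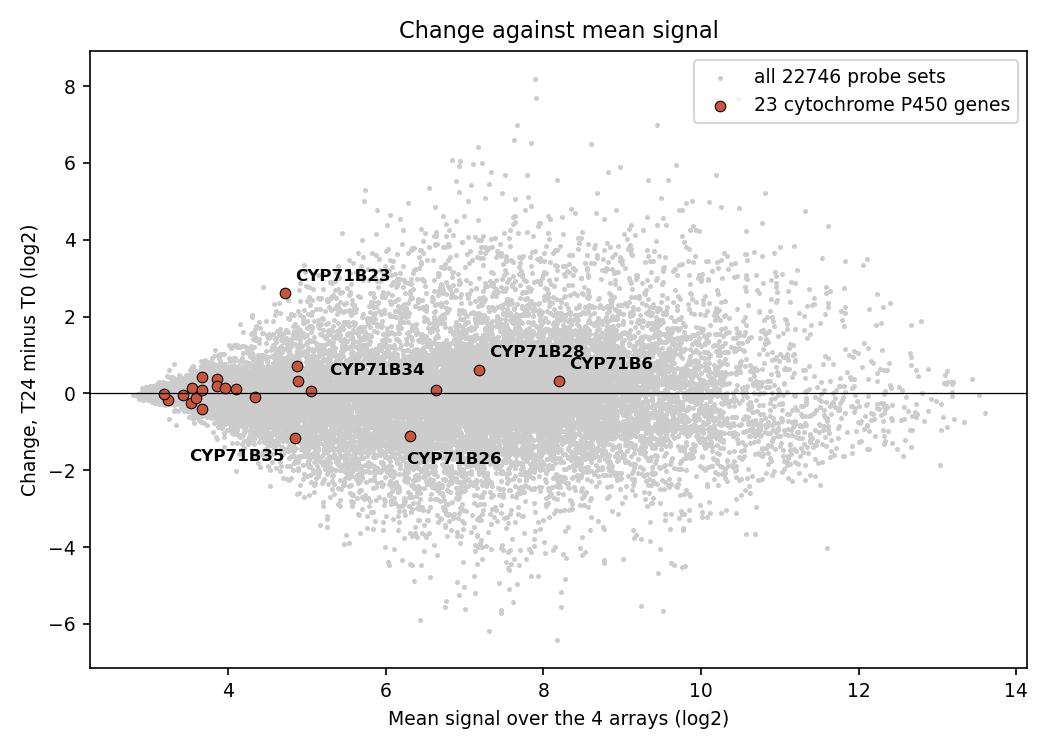
Change from T0 to T24 on the log2 scale (y axis) against the mean signal over the 4 arrays (x axis, log2) for all 22746 probe sets (grey) and the 23 cytochrome P450 genes (outlined). CYP71B23, at 2.61, is the only P450 gene with a change above 1, CYP71B26 and CYP71B35 lie below -1, and most of the others sit at the dim left end where the cloud is narrow.

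Most P450 probe sets were dim. The mean over the 4 arrays was under 5 for 18 of the 23 genes (78.3%). The share was 35.5% of all probe sets and 40.7% of the 13356 genes measured by name. For 14 genes all 4 signals were under 5. Changes smaller than 0.5 in size were found for 18 genes, or 78.3%, against 53.9% of all probe sets and 57.4% of genes measured by name. Among the 18 genes with a mean under 5 it was 15, against 85.1% of all probe sets that dim. Among the 5 genes with a mean of at least 5 it was 3, against 36.8% of all probe sets that bright. RMA gives no detection calls, so whether a dim gene was expressed was not tested. Over all probe sets 1.43% of those with a mean under 5 passed, against 19.7% of those with a mean of at least 5. CYP71B23 was the member that passed among the 18 dim genes, through its T24 signals, and 0 of the 5 brighter genes passed.

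The 5 genes with a mean of at least 5 were CYP71B6, CYP71B22, CYP71B26, CYP71B28 and CYP71B34. CYP71B6 (AT2G24180), known to convert indole-3-acetonitrile into indole-3-carbaldehyde and indole-3-carboxylic acid, had 8.27 and 7.80 at T0 and 8.09 and 8.62 at T24. Its groups overlapped, and the difference of 0.32 ± 0.30 (SE) did not pass (95% interval -0.52 to 1.16, adjusted p of 0.588 in limma). CYP71B28 (AT1G13090) had 6.94 and 6.81 at T0 and 7.25 and 7.72 at T24. Both T24 arrays were higher, by 0.61 ± 0.24 (SE) on average, with an interval from -0.05 to 1.27 and an adjusted p of 0.192 in limma. CYP71B34 (AT3G26300) had 6.58 and 6.59 at T0 and 6.47 and 6.89 at T24. The T0 pair lay between the T24 pair, and the difference of 0.09 ± 0.23 (SE) had an interval from -0.53 to 0.72. CYP71B22 (AT3G26200) had 4.63 and 5.41 at T0 and 5.24 and 4.95 at T24. Its T0 replicates were farther apart (0.78) than its group means (0.07).

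Intervals were taken on the measured log2 scale. For 15 of the 23 genes the whole 95% interval lay within a 2-fold change in either direction. Of these 15, 14 had a mean under 5, where RMA compresses differences, so their intervals do not bound the change in RNA. For the other 8, which include CYP71B23, CYP71B26 and CYP71B35, the interval reached 2-fold or more. Among the 22 genes that did not pass, differences ran from -1.16 (CYP71B35) to 0.70 (CYP71B38). CYP71B38 (AT3G44250) had 4.60 and 4.45 at T0 and 5.66 and 4.80 at T24, and its T24 arrays were 0.86 apart. Its adjusted p was 0.284 in limma, with an interval from -0.27 to 1.67.

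Many of the CYP71B genes lie in groups along the chromosomes, and others, among them CYP71B6 and CYP71B38, stand alone. The order of genes was taken from the RefSeq gene table, and genes with at most 10 steps between them were put in 1 group. The largest group, on chromosome 3, runs from CYP71B16 to CYP71B37 and has 18 CYP71B genes, of which 11 were measured. Of these 1 rose, and 5 had values above 0 and 6 below, with a median of -0.03. CYP71B23 is the direct neighbour of CYP71B22, which stood at 0.07 ± 0.34 (SE), with an interval from -0.86 to 1.01. On its other side CYP71B3 is not analysed here, and beyond it CYP71B24 had 3.47 and 3.44 at T0 and 3.81 and 3.96 at T24. That is a difference of 0.43 ± 0.18 (SE) between groups that do not overlap, with an adjusted p of 0.209 in limma. At the far end CYP71B34, CYP71B35, CYP71B36 and CYP71B37 follow each other without a gap. In that run CYP71B34 stood at 0.09 and CYP71B35 at -1.16. CYP71B36, at -0.18 ± 0.18 (SE), had 3.24 and 3.43 at T0 and 3.16 and 3.14 at T24. CYP71B37, at -0.42 ± 0.18 (SE), had 3.88 on both T0 arrays and 3.53 and 3.41 at T24, without overlap (adjusted p of 0.219 in limma). The differences between neighbours were not tested.

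**Figure D3:**
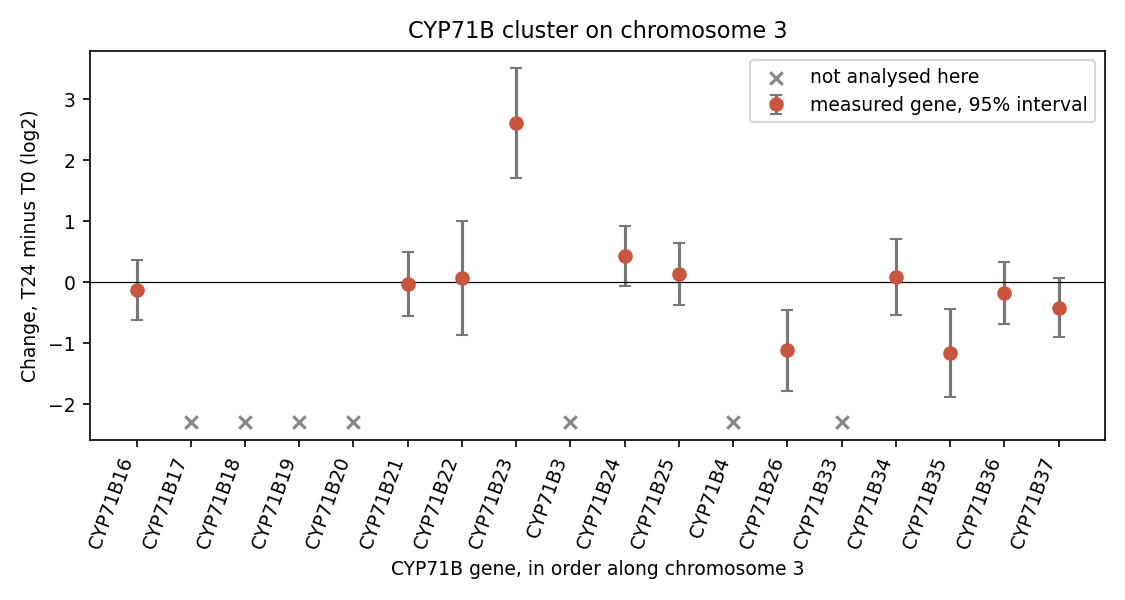
Change from T0 to T24 on the log2 scale (y axis, points with 95% intervals from limma) for the CYP71B genes of the chromosome 3 group in their order along the chromosome (x axis), with crosses for genes not analysed here. CYP71B23 stands alone at 2.61, its measured neighbours have intervals that include 0, and CYP71B26 and CYP71B35 have intervals below 0.

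The remaining genes of this group were dim on all 4 arrays. CYP71B16 stood at -0.12 ± 0.18 (SE), CYP71B21 at -0.03 ± 0.19 and CYP71B25 at 0.13 ± 0.18, and the values of CYP71B16 and CYP71B21 turned positive under median centring. The group on chromosome 1 has 5 CYP71B genes and 3 measured ones, CYP71B27, CYP71B28 and CYP71B29. All 3 had values above 0, from 0.15 to 0.61, and none passed. CYP71B27, which the gene table lists as a transcribed pseudogene, had 3.87 and 3.91 at T0 and 4.05 and 4.02 at T24. CYP71B29 had 3.72 and 3.83 at T0 and 3.99 and 3.93 at T24. In both genes the T24 pair was higher without overlap, yet by no more than 0.19 on average.

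The second group on chromosome 3 has 4 CYP71B genes, of which CYP71B5, CYP71B30P and CYP71B31 were measured. CYP71B31 is known to be expressed in flowers and to act on the scent alcohol linalool. It gave 3.92 and 3.37 at T0 and 3.27 and 3.55 at T24, with overlapping groups and a difference of -0.24 ± 0.27 (SE, adjusted p of 0.666 in limma). CYP71B5 had 3.89 and 3.45 at T0 and 4.31 and 3.78 at T24, with a difference of 0.38 ± 0.29 (SE). CYP71B30P carries the P of a pseudogene in its name, although the gene table lists it as protein coding. Its 4 signals, between 3.10 and 3.28, were the most even of the second group, and its difference was -0.01 ± 0.18 (SE), or 0.15 under median centring.

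The 4 genes outside subfamily CYP71B were dim and did not pass. CYP84A4 (AT5G04330), a relative of the lignin enzyme ferulate 5-hydroxylase that makes precursors of arabidopyrones, had 4.76 and 4.71 at T0 and 5.21 and 4.89 at T24. The groups did not overlap, and the difference was 0.31 ± 0.21 (SE, adjusted p of 0.408 in limma). CYP79A2 (AT5G05260), which turns phenylalanine into the oxime precursor of benzylglucosinolate, had 3.70 and 3.54 at T0 and 3.78 and 3.65 at T24, a difference of 0.10 ± 0.19 (SE). CYP78A9 (AT3G61880), known for enlarged fruits when overexpressed, had 4.27 and 4.51 at T0 and 4.04 and 4.58 at T24. Its T0 values lay within its T24 values, and the difference was -0.08 ± 0.27 (SE), or 0.07 under median centring. CYP51G2 (AT2G17330), a relative of the sterol 14-demethylase CYP51G1 that the gene table lists as a transcribed pseudogene, had 3.82 and 4.28 at T0 and 4.11 and 4.22 at T24. Its T24 values lay within its T0 values.

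The pathways that P450s serve could hardly be followed by name. In 16 lists of P450 roles, 5 of 82 genes were measured, 0 rose and 0 fell in limma, and 0 had an unadjusted p under 0.05. The 5 were CYP79A2 for glucosinolates, CYP84A4 for phenylpropanoids, CYP51G2 for sterols, CYP78A9 for organ growth and CYP71B31 for floral terpenoids. The lists for camalexin, pollen wall, cutin and wax, jasmonate, abscisic acid, brassinosteroids, gibberellins, cytokinins, strigolactones, carotenoids and triterpenes had 0 genes measured by name. The same held for the 7 electron donors listed, the P450 reductases and cytochromes b5, and for 29 P450 genes usually called by another symbol. Another 2 probe sets were paired with several genes that include a P450, and were not used.

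Array-wide checks bear on these values as follows. The median of all probe sets lay between 6.19 and 6.29 on the T0 arrays and between 6.08 and 6.09 on the T24 arrays, and medians over the 23 P450 genes 3.88 at both T0 arrays, 4.05 and 4.02 at T24. Of 23 marker genes of flower parts, stem and epidermis 8 were measured, all of flower parts, and 0 were of stem or epidermis. The median signal of the 8 was 6.66 and 5.94 at T0 and 6.85 and 6.53 at T24. The tapetum marker AT5G07230 (A9) differed widely between replicates, with SDs of 1.42 at T0 and 2.01 at T24 (n = 2 each) and a change of -1.95. The tapetum marker SWEET8 was higher at T24 without overlap, by 0.93, from 8.87 and 9.44 to 10.27 and 9.89, and AMS stood at -0.24. SPT and SPL, of carpel and anther development, stood at 0.84 and -0.97, with overlapping groups for SPT and none for SPL. These 5 genes of tapetum, carpel and anther had signals above 5 on all 4 arrays. The meristem markers UFO and CLV3 were under 5 on all 4. The pollen marker AT59, a pectate lyase, rose by 4.20 (adjusted p of 0.0143 in limma), from 6.60 and 6.19 to 10.56 and 10.63, and the other 7 did not pass. The part of cell composition in the rise of CYP71B23 was not tested.

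**Figure D4:**
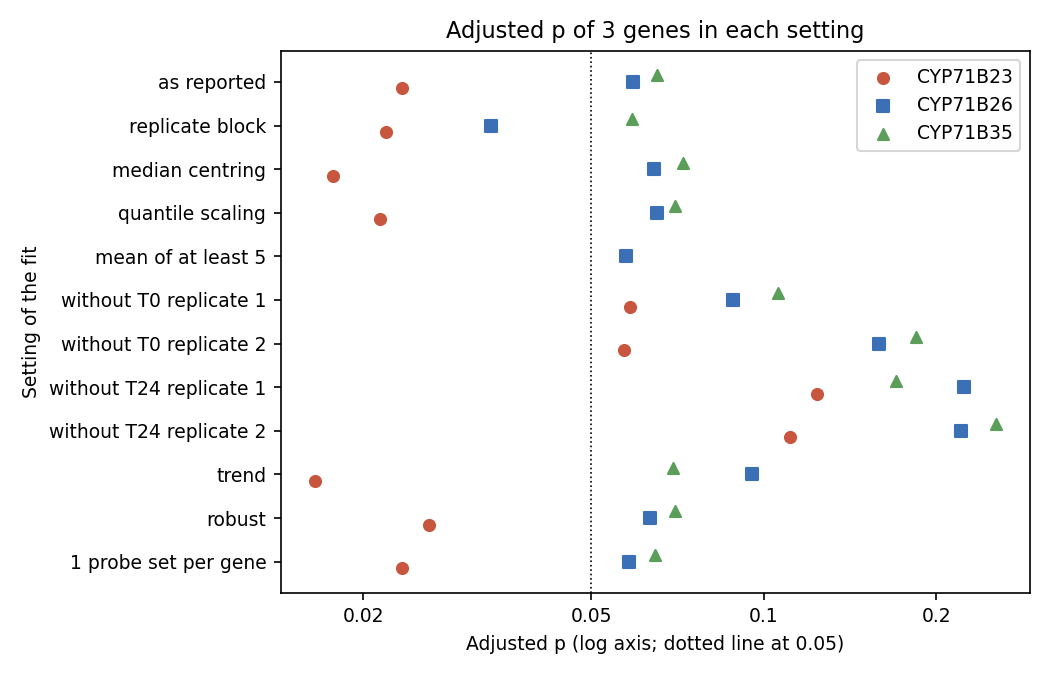
Adjusted p in limma (x axis, log scale, dotted line at 0.05) of CYP71B23, CYP71B26 and CYP71B35 in each setting of the fit (y axis). CYP71B23 lies left of the line in each fit shown that kept all 4 arrays and its probe set, CYP71B26 crosses it once, with the replicate number as a block (0.0334), and CYP71B35 stays right of it.

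At the threshold of 0.05, the call of CYP71B23 held in the 6 other fits that kept the 4 arrays and its probe set, with an adjusted p in limma between 0.0165 and 0.0261. At a threshold of 0.01 it did not pass. A filter at a mean of 5 removed the probe sets of CYP71B23 and CYP71B35 before the test.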

How the data were processed

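The authors deposited 1 table of log2 values for 22746 probe sets on 4 arrays, made with RMA per the submitters' processing notes; the version and settings are not given in the sources used here. Base 2 is what RMA normally writes, and the values (2.71 to 14.44) fit it. Probe sets were paired with genes through the platform annotation, and their gene identifiers were looked up in RefSeq's TAIR10.1 gene table for current symbols and gene order. That table is of Columbia, while the plants were Ler-0. Of the probe sets, 13513 had 1 gene, 503 several and 8730 none. Groups and replicate numbers came from the titles. The contrast of T24 with T0 was fitted over the whole table, with no filter or covariate. It used limma 3.58.1 (R 4.3.3, lmFit and eBayes) with Benjamini-Hochberg adjustment. The fit was also run on simulated data with noise independent between arrays, and no call reported here rests on that run. That check does not cover replicate differences shared by T0 and T24, which correlated at 0.63 in the data. The 4 arrays limit the precision. Named genes were all that passed, all members of the role lists, and the brightest gene of each clan that did not pass; with 23 members, the others are given too. Members, lists and alternatives were chosen with earlier results of these data known.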

Additional observations from a re-analysis of the deposited data

How the results depend on the processing

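The count of 1 rise and 0 falls was the same under median centring, quantile scaling, the trended and robust variance models and 1 probe set per gene. A 2-fold limit could not change this count, as CYP71B23 rose 6.12-fold and 0 genes fell. Taking all probe sets of the members, or the platform's own symbols, gave the same 23 genes with 1 probe set each. Neither of these could change the count. The rise was lost, leaving 0, with a filter at a mean of 5 (its probe set is removed), at an adjusted p of 0.01, and without any 1 of the 4 arrays (0 in each fit), where its change ran from 2.24 to 2.98. Leaving out 1 array left 0 calls over all probe sets, with 4888 to 5942 at an unadjusted p under 0.05 in limma. With replicate as a block in the model, CYP71B26 also passed (adjusted p 0.0334 in limma), giving 1 rise and 1 fall, and 6528 of all probe sets passed against 3010. No label ties a replicate number to a common batch or day, there are only 2 pairs, and replicate differences at T0 and T24 correlated at 0.63 across probe sets, as a hint from the data. The count over all probe sets otherwise lay between 2764 and 3240. The median change of the 23 genes was 0.10, and 0.25 under median centring, 0.12 under quantile scaling, and 0.051 to 0.134 without 1 array; for clan 71 it was 0.25 under median centring and 0.048 to 0.125 without 1 array. Sign changes touched 8 genes, none of which passed. Under median centring CYP71B16 stood at 0.033, CYP78A9 at 0.074, CYP71B21 at 0.13 and CYP71B30P at 0.15. Without 1 array the ranges were -0.51 to 0.035 for CYP71B31, -0.12 to 0.35 for CYP51G2 (the only gene of clan 51), -0.12 to 0.30 for CYP71B34, -0.35 to 0.19 for CYP78A9, -0.32 to 0.46 for CYP71B22, -0.14 to 0.083 for CYP71B21 and -0.10 to 0.084 for CYP71B30P. Low signal over background limits the 18 dim genes, whose true changes may be larger than those measured.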
